A study of Sus scrofa with 6 samples.

Results

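Genes of cholesterol and fatty acid metabolism were examined in porcine granulosa cells (GCs) that overexpressed retinol binding protein 4 (*RBP4*). A list of 43 genes was used, covering sterol synthesis, the handling of sterols after uptake, and the synthesis, activation and oxidation of fatty acids. A gene was taken when its name, from the Ensembl gene names or from the study's own gene tables, was on the list. By this rule 37 of the 43 genes were found among the 17950 genes of the deposited table. *ACACB* alone was named only by the study's tables, which include its list of changed genes. Such an entry can favour a gene that differs between the groups, so the size and rank of its difference are no independent result. All other genes found had Ensembl names. No row was found for *PMVK*, *MVD*, *SREBF1*, *ELOVL6*, *PLIN2* or *LPL*, which were not analysed here.

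The GCs were primary cells from the ovaries of pre-pubertal Landrace gilts, and both groups were infected for 72 h with lentiviral particles. The pLVX-*RBP4* group (3 libraries) received the pLVX-IRES-ZsGreen vector with the porcine *RBP4* cDNA, and the CTRL group (3 libraries) received the same vector without it. How many animals gave cells to a library is not given in the sources used here. The table holds 1 FPKM value per gene and group (fragments scaled by the length of the transcript and by the mapped fragments of the sample), so each level is a group value made by the authors. The spread between libraries is not known from these values, no test was made, and no p-value is given. Higher and lower describe the deposited group values only.

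GCs surround the oocyte and turn cholesterol into steroid hormones. Cells make cholesterol from acetyl-CoA through the mevalonate pathway, or take it up with lipoproteins and release it from lysosomes. When sterols are scarce, SCAP escorts the SREBP transcription factors out of the endoplasmic reticulum and genes of sterol uptake and synthesis are switched on. INSIG1 holds this complex back when sterols are plentiful. Fatty acids are built from cytosolic acetyl-CoA by acetyl-CoA carboxylase and fatty acid synthase, and are burned in mitochondria by β-oxidation after activation to acyl-CoA and transfer by carnitine palmitoyltransferases.

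The value of *RBP4* was 1.105 FPKM in CTRL GCs and 92.3 FPKM in pLVX-*RBP4* GCs, 83.6-fold higher, and it includes reads of the introduced sequence. Of 12 GC markers 6 were found by name, with a summed level of 755.6 FPKM in CTRL GCs and 745.8 FPKM in pLVX-*RBP4* GCs. They included *CYP11A1*, which cleaves the side chain of cholesterol, at 672.9 and 669.4 FPKM, most of this sum. Differences of log2(FPKM + 1), pLVX-*RBP4* minus CTRL, were -0.21 for *FSHR*, -0.14 for *NR5A1*, -0.075 for *NR5A2*, -0.054 for *INHA* and 0.019 for *AMHR2*. Theca and stroma markers were present too, 8 of 10 found, with sums of 3186 and 3440 FPKM, and *INSL3* was listed at 0 in CTRL GCs. *TAGLN*, at 1809 and 1891 FPKM, made up most of this sum, and single markers went both ways, with differences of log2(FPKM + 1) of 0.37 for *LUM*, 0.32 for *DCN* and 0.22 for *COL3A1* but -0.16 for *PDGFRA*. The 6 of 9 leukocyte markers found summed to 48.8 and 55.6 FPKM, most of it *CD14* at 42.9 and 48.9 FPKM. *CD68*, with 4.02 and 4.59 FPKM, and *LYZ*, with 1.01 and 1.35 FPKM, were higher too. Differences of log2(FPKM + 1) were 0.18 for *CD14*, 0.15 for *CD68* and 0.23 for *LYZ*. *PTPRC*, *CSF1R* and *ITGAM* had at most 0.43 FPKM in either group, and *PTPRC* was lower, with 0.229 and 0.166 FPKM. Sums were 19.9 and 19.0 FPKM for 2 of 6 endothelial markers. They were 3.36 and 3.57 FPKM for 2 of 7 oocyte markers, of which *DDX4* was listed at 0 in CTRL GCs. The 2 of 5 adipocyte markers found, *PLIN1* and *CIDEC*, summed to 0.905 and 0.322 FPKM. The part of these markers in the lipid results was not tested, and in such bulk values fewer cells of a type and less RNA per cell cannot be told apart.

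Differences were taken as log2(FPKM + 1) in pLVX-*RBP4* GCs minus the CTRL group. Differences of weak genes come out smaller on this scale than as plain ratios. They were read beside the 12382 genes with a mean of at least 1 FPKM, a limit that 36 of the 37 lipid genes passed. *ACADVL*, which encodes the very long chain acyl-CoA dehydrogenase of mitochondria, did not pass, with 0.220 FPKM in CTRL GCs and 0.303 FPKM in pLVX-*RBP4* GCs. The other 6 oxidation genes had at least 16.8 FPKM, and whether the Sscrofa10.2 gene model of *ACADVL* is complete was not tested, so its value is given only as listed. Fold values are plain ratios of FPKM, while counts past a fold limit were made on the log2(FPKM + 1) scale.

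The lipid genes spanned a wide range of levels, and most differed little between the groups, as did most of all genes. Among the 36 genes, levels ran from 2.64 FPKM (*IDI1*) to 969.4 FPKM (*ACSL4*) in CTRL GCs and from 2.15 to 1011.5 FPKM, for the same genes, in pLVX-*RBP4* GCs. Of the 36 genes, 18 were higher and 18 lower in pLVX-*RBP4* GCs (26 higher after rescaling to a common sum, 9 without the most abundant gene, as described below). Among all genes 50.2% were higher and 49.8% lower. After rescaling to a common sum 64.87% of all genes were higher, and without the most abundant gene 30.15% were. The median difference of the 36 genes was -0.0053, beside 0.0014 for all genes.

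**Figure D1:**
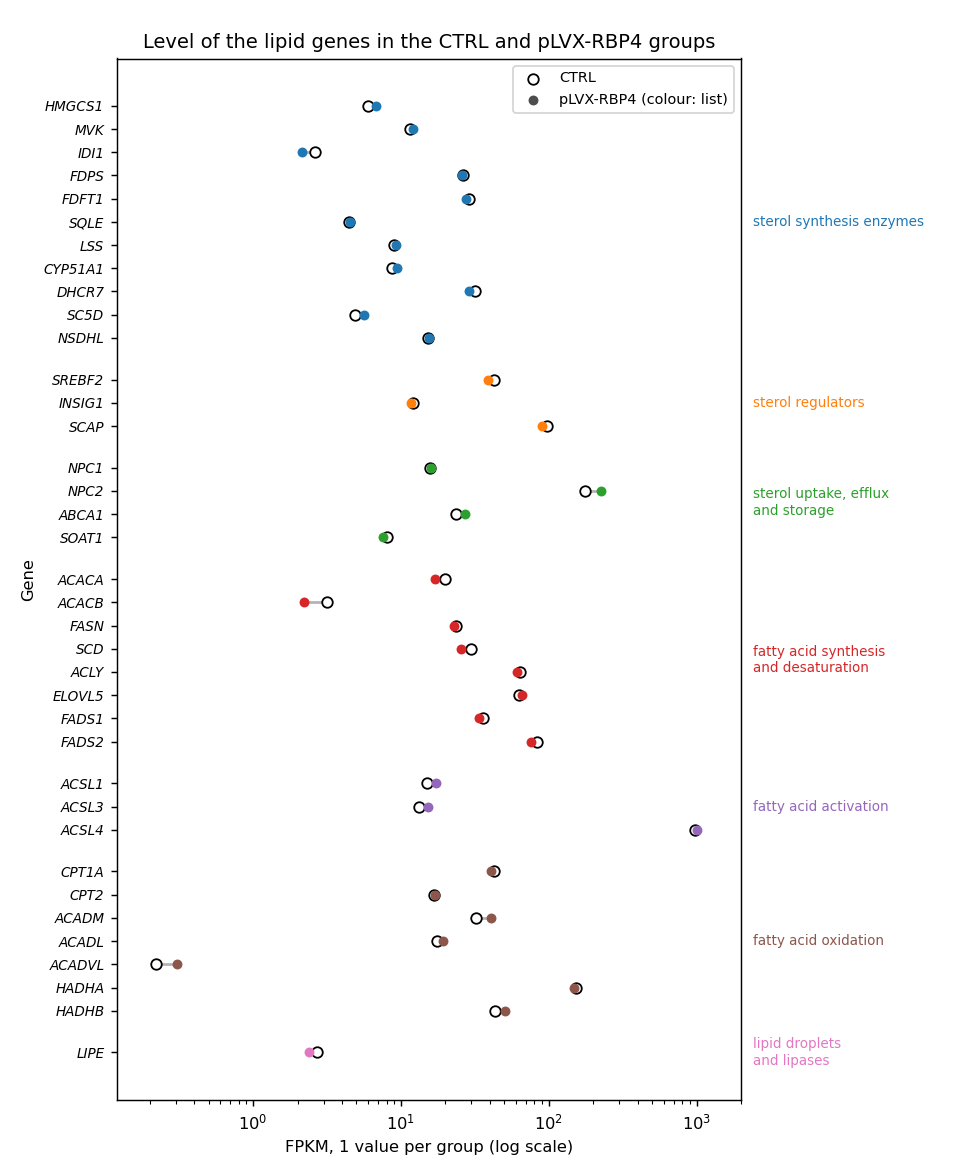
FPKM (log axis) of the 37 lipid genes found, 1 row per gene, with the CTRL value as an open circle and the pLVX-RBP4 value as a filled circle in the colour of its list. Each circle is 1 value per group, with no error. The circles of most genes touch or overlap, the widest gap between genes above 1 FPKM is that of ACACB (3.19 and 2.21 FPKM), and ACSL4 lies far to the right at 969.4 and 1011.5 FPKM. ACACB entered by the study's tables alone, which include its list of changed genes.

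Few lipid genes passed a limit of 1.2-fold, and whether their shares differ from those of all genes was not tested. At least 1.2-fold higher on the log2(FPKM + 1) scale were 2 of the 36 genes, *NPC2* and *ACADM*, beside 11.0% of all genes. At least 1.2-fold lower was 1 gene, *ACACB*, beside 8.63% of all genes. That gene entered by the study's tables alone, which include its list of changed genes. With 1.1-fold as the limit, 8 genes (22.2%) were higher, beside 25.0% of all genes, and 5 genes (13.9%) were lower, beside 22.6%. No lipid gene reached 1.5-fold, beside 184 higher and 159 lower among all 12382 genes. Thus 23 of the 36 genes (63.9%) lay within 1.1-fold, as did 52.4% of all genes. Among genes with a mean of at least 10 FPKM, this held for 18 of 27 lipid genes (66.7%) and for 55.3% of all genes.

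How the columns are scaled decides the sign of small differences. A single gene without a symbol, ENSSSCG00000025162, held 35.4% of the summed FPKM in CTRL GCs and 25.8% in pLVX-*RBP4* GCs. Rescaling both columns to a common sum (TPM) moved the median of all genes by 0.071, and rescaling without this gene moved it by -0.11. Equal medians or equal upper quartiles moved it by less than 0.01. Under all 4 scalings 19 of the 36 genes kept their sign, 9 higher and 10 lower. All 36 stayed on the same side of the median of all genes. That was nearly fixed in advance, because a scaling moves every gene by almost the same amount. The counts of higher and lower genes below are those of the deposited values unless a rescaling is named. Counts after rescaling to a common sum stand beside 64.87% of all genes higher. Those without the most abundant gene stand beside 30.15%, so such counts largely follow the shift of all genes.

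Sterol synthesis enzymes were spread around 0, with differences between -0.20 and 0.17. Of 13 enzymes listed 11 were found, and 7 were higher and 4 lower in pLVX-*RBP4* GCs (9 higher after rescaling to a common sum, 2 without the most abundant gene). Their median difference was 0.015 and none passed 1.2-fold. Their summed level was 149.0 FPKM in CTRL GCs and 147.6 FPKM in pLVX-*RBP4* GCs.

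The first steps of the mevalonate pathway went both ways. *HMGCS1*, which makes HMG-CoA, had 5.95 FPKM in CTRL GCs and 6.82 FPKM in pLVX-*RBP4* GCs, a difference of 0.17. *MVK*, which phosphorylates mevalonate, had 11.6 and 12.1 FPKM. *IDI1*, the isomerase that supplies dimethylallyl diphosphate, had the lowest level of the enzymes, 2.64 and 2.15 FPKM, and the lowest difference among them, -0.20. *FDPS*, which joins isoprenoid units into farnesyl diphosphate, was nearly level at 26.4 and 26.0 FPKM.

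At the branch to sterols, *FDFT1* (squalene synthase) had 28.8 FPKM in CTRL GCs and 27.5 FPKM in pLVX-*RBP4* GCs. *SQLE*, the squalene epoxidase that limits the flux into sterols, had 4.46 and 4.49 FPKM, a difference of 0.0085. *LSS*, which closes the sterol rings, had 8.95 and 9.27 FPKM. Levels of these consecutive enzymes thus differed several-fold from each other within a group and little between the groups.

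The steps after lanosterol were also mixed. *CYP51A1*, the lanosterol demethylase, had 8.64 FPKM in CTRL GCs and 9.36 FPKM in pLVX-*RBP4* GCs (0.10), and *NSDHL*, which removes the methyl groups at the sterol ring together with other enzymes, had 15.2 and 15.4 FPKM (0.015). *SC5D*, which introduces a ring double bond, had 4.85 and 5.59 FPKM, the highest difference among the enzymes, just above that of *HMGCS1* (0.17). *DHCR7*, which makes cholesterol in the last step of one branch, was the most abundant at 31.5 and 28.9 FPKM, a difference of -0.12. *HMGCS1*, *SC5D*, *IDI1* and *DHCR7* kept their sign under all 4 scalings, and the other 7 enzymes did not.

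The 3 sterol regulators found were all lower in pLVX-*RBP4* GCs by small amounts, although *INSIG1* was higher after rescaling to a common sum. *SREBF2*, the SREBP that acts mainly on sterol genes, had 42.4 FPKM in CTRL GCs and 38.6 FPKM in pLVX-*RBP4* GCs, a difference of -0.13. *SCAP*, its escort, was more abundant at 97.9 and 90.6 FPKM (-0.11). *INSIG1*, which retains the complex, had 12.1 and 11.7 FPKM (-0.046). All 3 lay within 1.1-fold, as 52.4% of all genes did.

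Among the genes for sterol uptake, efflux and storage, 3 of 4 were higher in pLVX-*RBP4* GCs, or 4 after rescaling to a common sum and 2 without the most abundant gene. *NPC2* and *NPC1* encode the lysosomal proteins that hand cholesterol on after uptake with lipoproteins. *NPC2*, the soluble partner, had 175.4 FPKM in CTRL GCs and 226.7 FPKM in pLVX-*RBP4* GCs, 1.29-fold higher, with a difference of 0.37. That difference was the highest of the 36 lipid genes and exceeded those of 94.8% of all genes. *NPC1*, the membrane partner, had 15.6 and 15.9 FPKM (0.028). The amount of *NPC2* relative to *NPC1*, which does not depend on scaling, was 11.2 in CTRL GCs and 14.2 in pLVX-*RBP4* GCs.

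*ABCA1*, which exports cholesterol to lipid-poor apolipoproteins, had 23.7 FPKM in CTRL GCs and 27.0 FPKM in pLVX-*RBP4* GCs, 1.14-fold higher (0.18). *SOAT1*, which esterifies cholesterol for storage, had 7.99 and 7.60 FPKM (-0.065). Of these 4 genes *NPC2* and *ABCA1* were higher under each scaling.

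**Figure D2:**
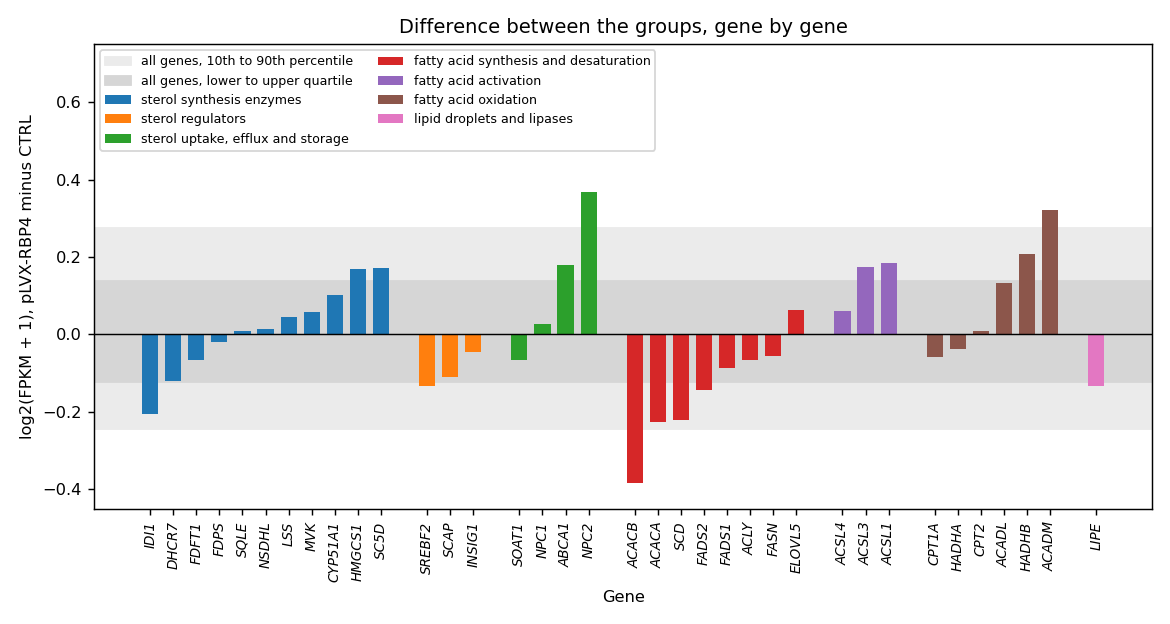
Difference of log2(FPKM + 1), pLVX-RBP4 minus CTRL, for each of the 36 lipid genes with a mean of at least 1 FPKM, as bars coloured and grouped by list and ordered by value within a list. Grey bands span the 10th to 90th percentile (-0.24 to 0.28) and the lower to upper quartile (-0.12 to 0.14) of all 12382 genes. NPC2 and ACADM stand above the outer band and ACACB below it, and 7 of 8 fatty acid synthesis genes point down, 5 of 8 after rescaling to a common sum.

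Genes of fatty acid synthesis and desaturation were mostly lower or level. Of 8 genes found 7 were lower in pLVX-*RBP4* GCs, beside the 49.8% of all genes given above. After rescaling to a common sum 5 were lower, where 64.87% of all genes were higher. Without the most abundant gene 8 were lower, where 30.15% of all genes were higher. In the deposited values the median difference of the 8 genes was -0.12, while that of all genes was 0.0014. These counts include *ACACB*, which entered by the study's tables alone. With a limit of 5 FPKM, which left *ACACB* out, the median of the remaining 7 genes was -0.087 and 1 was higher. At least 1.1-fold lower were 4 of the 8 genes, beside 22.6% of all genes, and none was 1.1-fold higher, beside 25.0%. Their summed level was 324.1 FPKM in CTRL GCs and 304.5 FPKM in pLVX-*RBP4* GCs.

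*ACACA* and *ACACB* encode the acetyl-CoA carboxylases that make malonyl-CoA, the former mainly for synthesis in the cytosol, the latter at mitochondria where malonyl-CoA inhibits carnitine palmitoyltransferase. *ACACB* had 3.19 FPKM in CTRL GCs and 2.21 FPKM in pLVX-*RBP4* GCs, 1.44-fold lower, with a difference of -0.38. Only 3.48% of all genes had a lower difference, but this rank may depend on how *ACACB* entered, by the study's tables alone. *ACACA*, the more abundant, had 19.98 and 16.9 FPKM, a difference of -0.23. The ratio of *ACACA* to *ACACB* was 6.27 and 7.66.

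The genes around the carboxylases differed less. *ACLY*, which releases cytosolic acetyl-CoA from citrate, had 64.4 FPKM in CTRL GCs and 61.5 FPKM in pLVX-*RBP4* GCs (-0.065), and *FASN*, the fatty acid synthase, had 23.8 and 22.8 FPKM (-0.055). Both became slightly higher after rescaling to a common sum. *SCD*, the desaturase that makes monounsaturated fatty acids, had 29.9 and 25.5 FPKM, 1.17-fold lower (-0.22).

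*FADS1* and *FADS2*, the desaturases of polyunsaturated fatty acids, are next to each other in the RefSeq order of protein-coding genes (Sscrofa11.1). *FADS2* had 83.7 FPKM in CTRL GCs and 75.7 FPKM in pLVX-*RBP4* GCs (-0.14), and *FADS1* had 35.9 and 33.8 FPKM (-0.087). Their ratio stayed close, 2.33 and 2.24. *ELOVL5*, which elongates polyunsaturated fatty acids between these desaturation steps, was the single gene of the list that was higher, with 63.3 and 66.1 FPKM (0.063), and it was lower when the most abundant gene was left out of the rescaling. *ACACA*, *ACACB*, *SCD*, *FADS1* and *FADS2* were lower under each scaling.

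The 3 listed acyl-CoA synthetases, which activate fatty acids for oxidation or for storage, were higher in the deposited values, but without the most abundant gene in the rescaling only *ACSL1* and *ACSL3* were. *ACSL1* had 15.1 FPKM in CTRL GCs and 17.3 FPKM in pLVX-*RBP4* GCs (0.18), and *ACSL3* had 13.3 and 15.2 FPKM (0.17). *ACSL4*, which prefers arachidonic acid, had 969.4 and 1011.5 FPKM (0.061). It made up 97.2% of the summed level of the 3 genes in CTRL GCs and 96.9% in pLVX-*RBP4* GCs. By level it was number 113 of the 12382 genes in CTRL GCs and number 123 in pLVX-*RBP4* GCs.

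Of the 6 fatty acid oxidation genes above the limit on level, 4 were higher in pLVX-*RBP4* GCs, or 6 after rescaling to a common sum and 3 without the most abundant gene. The median difference was 0.071. Of the carnitine shuttle, *CPT1A* was nearly level with 42.3 FPKM in CTRL GCs and 40.6 FPKM in pLVX-*RBP4* GCs (-0.059). So was *CPT2*, with 16.8 and 16.9 FPKM (0.0086).

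*ACADM* and *ACADL* encode acyl-CoA dehydrogenases, which open each round of β-oxidation. *ACADM*, for medium chains, had 32.3 FPKM in CTRL GCs and 40.6 FPKM in pLVX-*RBP4* GCs, 1.26-fold higher (0.32), above 92.9% of all genes. *ACADL*, for long chains, had 17.5 and 19.3 FPKM (0.13). The sign of both was the same under each scaling.

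*HADHA* and *HADHB* encode the subunits of the mitochondrial trifunctional protein, which carries out the later steps on long chains, and they are neighbours in the RefSeq order of protein-coding genes. *HADHA* had 153.3 FPKM in CTRL GCs and 149.5 FPKM in pLVX-*RBP4* GCs (-0.036), while *HADHB* had 43.3 and 50.2 FPKM (0.21). The *HADHB* to *HADHA* ratio, independent of scaling, was 0.283 and 0.336, or 1.19-fold higher in pLVX-*RBP4* GCs. Whether this exceeds the spread between libraries is not known.

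Of the lipid droplet and lipase genes only *LIPE*, the hormone-sensitive lipase, which also splits cholesteryl esters, was found. It was weakly expressed, with 2.71 FPKM in CTRL GCs and 2.38 FPKM in pLVX-*RBP4* GCs (-0.13), and was lower under each scaling.

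Other genes of the same pathways were read from 5 further lists with 111 names, of which 77 were found and 72 passed the limit on level. At least 1.2-fold higher were 7 of the 72 genes (9.72%), near the 11.0% of all genes, and at least 1.2-fold lower were 2 (2.78%), beside 8.63%. In all 41 were higher and 31 lower, or 53 higher after rescaling to a common sum and 25 without the most abundant gene.

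Of 6 other sterol synthesis genes 4 were higher (5 after rescaling to a common sum, 3 without the most abundant gene), with a median of 0.11. *TM7SF2*, a sterol reductase that acts just after *CYP51A1*, had 15.1 FPKM in CTRL GCs and 19.9 FPKM in pLVX-*RBP4* GCs (0.38), and *MSMO1*, the methyl sterol oxidase, had 10.9 and 13.2 FPKM (0.26).

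Among 19 other genes for sterol regulation, uptake, efflux and storage, 11 were higher (12 after rescaling to a common sum, 5 without the most abundant gene), with a median of 0.0028. *APOE*, the apolipoprotein that carries cholesterol between cells, had 108.3 FPKM in CTRL GCs and 156.3 FPKM in pLVX-*RBP4* GCs, 1.44-fold higher (0.53), above 98.0% of all genes. *CH25H*, which makes 25-hydroxycholesterol, was weakly expressed at 3.26 and 4.06 FPKM (0.25). *ABCA5*, a transporter of the ABC family, had 3.14 and 2.68 FPKM (-0.17).

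Of 14 other fatty acid synthesis genes 8 were higher (10 after rescaling to a common sum, 4 without the most abundant gene), with a median of 0.025. *OXSM*, of the separate fatty acid synthesis in mitochondria, had 11.6 FPKM in CTRL GCs and 15.1 FPKM in pLVX-*RBP4* GCs (0.35). *HSD17B12*, of the elongation cycle, had 47.4 and 53.3 FPKM (0.16). *ACSS2*, which makes cytosolic acetyl-CoA from acetate, had 4.82 and 4.14 FPKM (-0.18), and *ME1*, a source of NADPH, had 24.7 and 22.0 FPKM (-0.16).

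The list of 24 other genes for fatty acid uptake and oxidation had 16 higher genes (22 after rescaling to a common sum, 11 without the most abundant gene) and a median of 0.085. At least 1.2-fold higher were 4 of them (16.7%, beside 11.0% of all genes) and none was 1.2-fold lower, beside 8.63%. *ETFA*, of the flavoprotein that takes electrons from acyl-CoA dehydrogenases, had 67.4 FPKM in CTRL GCs and 88.3 FPKM in pLVX-*RBP4* GCs (0.39). *DECR1*, which prepares unsaturated fatty acids for oxidation, had 23.7 and 29.4 FPKM (0.30). At the other end were the peroxisomal genes *ACOX3*, with 9.70 and 8.68 FPKM (-0.14), and *ACOT8*, with 35.8 and 32.9 FPKM (-0.12).

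Of 9 other triglyceride and lipid droplet genes 7 were lower (5 after rescaling to a common sum, 7 without the most abundant gene), with a median of -0.080. *LPIN1*, which makes diacylglycerol for triglyceride synthesis, had 11.5 FPKM in CTRL GCs and 8.40 FPKM in pLVX-*RBP4* GCs (-0.41). *MGLL*, the monoglyceride lipase, had 4.56 and 3.37 FPKM (-0.35). Higher were *G0S2*, an inhibitor of triglyceride lipase, with 15.2 and 17.9 FPKM (0.22), and *ABHD5*, an activator of the same lipase, with 1.87 and 2.33 FPKM (0.21).

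**Figure D3:**
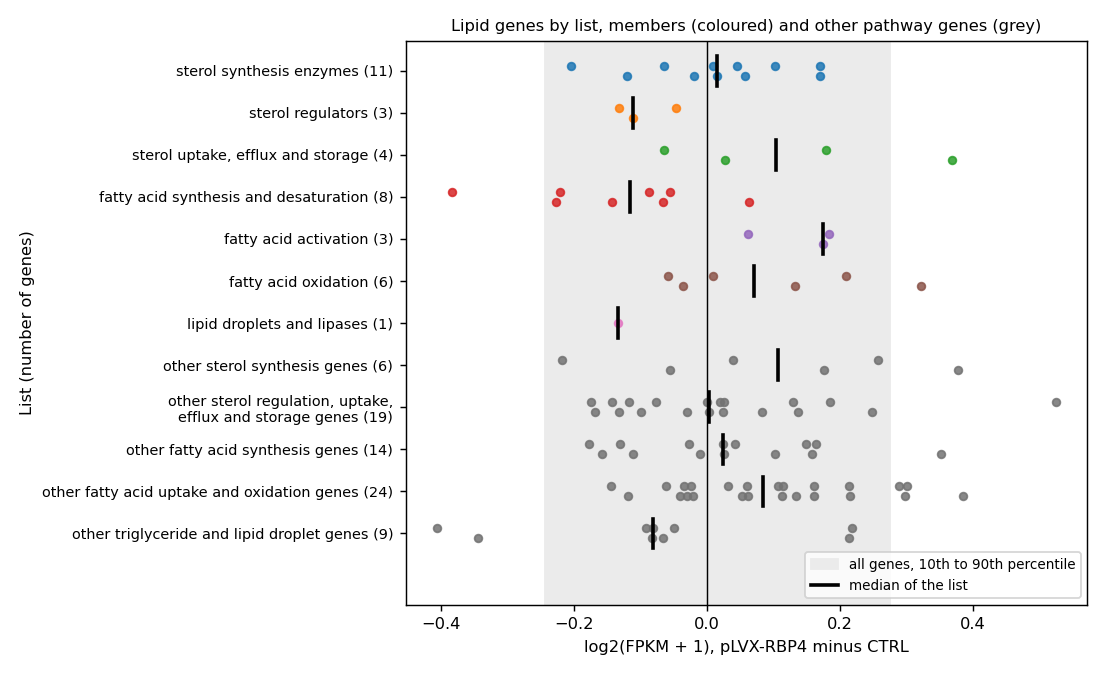
Difference of log2(FPKM + 1), pLVX-RBP4 minus CTRL, of each gene with a mean of at least 1 FPKM in the 7 lists of lipid genes (coloured) and 5 lists of other pathway genes (grey), with the number of genes in brackets, a black bar at the median of each list and small vertical offsets for legibility. The grey band spans the 10th to 90th percentile of all genes (-0.24 to 0.28). Medians run from -0.13 (lipid droplets and lipases, 1 gene) to 0.17 (fatty acid activation), all inside the band, and the points farthest out are APOE at 0.53 and LPIN1 at -0.41.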

How the data were processed

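RNA of 6 libraries was sequenced, 3 with the *RBP4* vector and 3 with the empty one. According to the methods, filtered paired-end reads were aligned to Sscrofa10.2 (also named in the submitters' processing notes) with TopHat2, and Cuffdiff of Cufflinks compared the groups. The deposited values are FPKM computed by the authors, 1 per gene and group. Versions of the tools and the annotation release are not given in the sources used here. Both columns were used and 0 were left out. The table holds no counts, so the number of fragments behind a gene's value is unknown and no interval is given. By the paper's sequencing statistics, each pLVX-*RBP4* library had more mapped reads than any CTRL library. The mapped share of reads was higher too. The part of this in the differences was not tested.

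From these values the difference of log2(FPKM + 1) was computed, and genes with a mean of at least 1 FPKM were kept. The difference, counts and medians were tested on simulated data with 200 changed genes. These were 1.5-fold changes in well expressed genes with little added noise. The test checked the computation and not how well small differences or weak genes are read. Names came from Ensembl for 10489 genes and from the study's tables, for 10757 of 17950 in all. No genome or sequence of the build was used, and the promoter motif search that had been planned was not run.

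The members and lists were chosen with earlier results of these data known. Every member found is named. In each list of other pathway genes the 2 highest and 2 lowest differences are named, except some genes that are not reported here. Alternatives were pseudocounts of 0.1 and 0.01, no limit on level or 5 FPKM, 4 scalings, fold limits of 1.1 and 1.5, and means of lists. Python 3.11.15, numpy 2.4.6, pandas 2.3.3 and matplotlib 3.10.9 were used.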

Additional observations from a re-analysis of the deposited data

How the results depend on the processing

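No paired analysis was possible because the deposited table holds 1 value per group, and for the same reason no library could be left out. The median differences of the lists moved by less than 0.1 under each alternative, where the shift of all genes by -0.11 was taken off for the rescaling without the most abundant gene. A count was called moved when it differed more than 1.5-fold from the reported count, or when only 1 of the 2 was 0. No count moved with no limit on level, with list means, or with equal medians or upper quartiles. The same held for the rescaling without the most abundant gene, with that shift taken off. At a limit of 1.1-fold, 8 lipid genes were higher and 5 lower, among them 2 and 1 sterol synthesis enzymes, 2 sterol uptake, efflux and storage genes, 4 lower fatty acid synthesis genes, 2 activation genes and 2 oxidation genes. The other pathway lists then had 3 higher and 1 lower gene (sterol synthesis), 3 and 3 (sterol handling), 4 and 2 (fatty acid synthesis), 8 and 1 (uptake and oxidation), and 2 and 2 (triglycerides). Among all genes 25.0% were 1.1-fold higher and 22.6% lower. At 1.5-fold every count was 0, beside 184 higher and 159 lower among all 12382 genes. With a mean of at least 5 FPKM *ACACB* was left out, so 0 lipid genes and 0 fatty acid synthesis genes were 1.2-fold lower, and of 7 triglyceride genes 1 was higher and 1 was 1.2-fold lower. With a pseudocount of 0.1 or 0.01, 2 lipid genes were 1.2-fold lower, 1 of them a sterol synthesis enzyme, and 2 other sterol synthesis, 2 other sterol handling and 1 other triglyceride gene were 1.2-fold higher. *ACACB* then had a difference of -0.51 or -0.53. After rescaling to a common sum, 3 fatty acid synthesis genes, 4 other triglyceride genes and 1 sterol regulator were higher, beside 64.87% of all genes. At least 1.2-fold higher were then 2 oxidation, 2 other sterol synthesis, 3 other sterol handling and 1 other triglyceride gene. The share of all genes past 1.2-fold was not computed for this rescaling, the pseudocounts or the limit of 5 FPKM. Those counts are therefore no results about the lists.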

Other observations

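Ratios of genes within a group do not depend on how the columns are scaled, and the pairs given here were chosen after their values were seen. *DHCR7* relative to *SC5D*, both of late sterol synthesis, was 6.49 in CTRL GCs and 5.18 in pLVX-*RBP4* GCs, 1.25-fold lower. *CPT1A* relative to *ACACB*, whose product malonyl-CoA inhibits CPT1A, was 13.3 and 18.4, 1.38-fold higher. *CPT1A* itself was slightly lower (42.3 and 40.6 FPKM), so the higher ratio came from the lower value of *ACACB* (3.19 and 2.21 FPKM). *ACACB* entered by the study's tables alone.

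The flavoprotein that takes electrons from β-oxidation was read in the same way. *ETFA* relative to *ETFDH*, the dehydrogenase that passes its electrons on, was 0.821 in CTRL GCs and 0.980 in pLVX-*RBP4* GCs. *ETFB*, the partner of *ETFA*, had 102.4 and 126.2 FPKM, and *ETFDH* had 82.1 and 90.1 FPKM. Each of these ratios rests on 1 value per group and was not tested.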
